A study of Rattus norvegicus with 12 samples.

Results

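Scgb1c1 encodes a secretoglobin, and its level was followed in the lumbar mammary gland of young female Wistar rats whose dams had been fed a low or a normal protein diet in pregnancy. All probes that the array annotation assigns to Scgb1c1 were taken, which gave 1 probe printed at 2 spots on each array, for 1 of 26456 gene names. The gene was chosen because it stood among the genes that differed between the diets at day 21, so that its day 21 diet difference is given as a description without a test.

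The NP dams received Altromin C1000 with 17.0% protein and the LP dams Altromin C1003 with 8.8% protein throughout pregnancy. Litters were cut to 6 females at birth. The mothers of both groups had standard chow and tap water during lactation. The young were nursed by their mothers until day 21, when they were weaned to standard chow. The rats of day 21 had thus been raised on milk of LP or NP dams. Glands of the 4th and 5th pair, with visible lymph nodes taken out, came from 3 NP and 3 LP rats at day 21 of life and 3 NP and 3 LP rats at day 28. Total RNA of each rat was labelled with a single dye and hybridised to its own array, and the labels do not say which rats shared a litter, so that p-values measure only the spread between these samples. The labels and a sentence of the methods write that dams were killed at these ages. The rest of the methods describes the offspring, which is how the samples are read here.

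Secretoglobins are small secreted proteins, mostly of alpha helices, that pair through disulfide bridges and enclose a pocket for hydrophobic molecules. They are abundant in the fluids of airway, lacrimal, salivary, uterine and mammary epithelia, and Scgb1a1, the Clara cell protein of the lung, is the best known of them. Scgb1c1 itself is known from olfactory mucosa.

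The last 30 bases of the 60-base Scgb1c1 probe are shown because every value of the gene rests on this 1 probe. They lie at chr1:201004314-201004343 on the plus strand of rn4, the build of the array annotation, within the whole probe at chr1:201004284-201004343. The capitals mark AATAAA, the hexamer of a polyadenylation signal, which begins at base 37 of the probe:

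Scgb1c1 probe, bases 31 to 60: taaatcAATAAAgtctaatgcagtccatgc

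AATAAA occurs in the printed orientation in 8.39% of the 30367 probes of this length on the array and in either orientation in 11.0%. The reverse complement, TTTATT, is not in the Scgb1c1 probe. No other probe on the array shares a run of 15 bases with it. No annotation of this build was used, so that whether the probe lies in an exon or an untranslated region is not stated here.

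The probe was well above background at both spots on all 12 arrays, with no spot saturated and none marked as an outlier. The processed signal is the scanner's brightness after its software subtracted the background, and levels below are log2 of that signal relative to the 75th percentile of the array. At day 21 the mean processed signals of the NP arrays 4a, 5a and 6a were 346, 438 and 300, and those of the LP arrays 4a, 6a and 7c were 150.2, 150.1 and 107. At day 28 the NP arrays 4f, 5f and 6f gave 269, 268 and 389, and the LP arrays 4f, 6f and 7f gave 346, 290.2 and 133. The 4 dimmest arrays were all LP arrays, 3 of day 21 and 1 of day 28. The spots of an array differed by at most 0.24 on the log2 scale, except on NP 5f of day 28, where signals of 203 and 333 differed by 0.72.

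**Figure D1:**
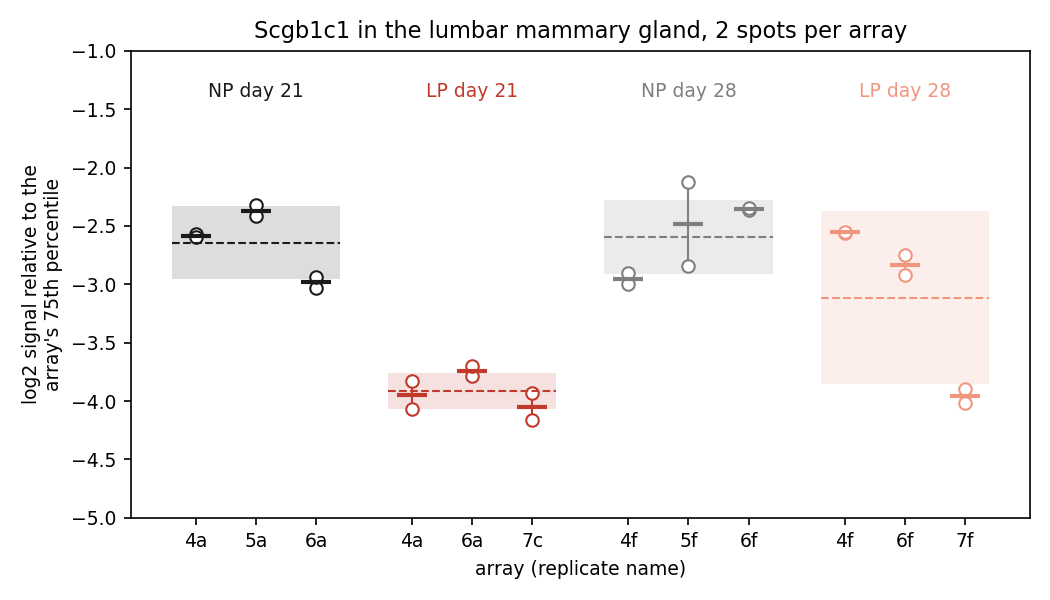
The level of Scgb1c1 in each of the 12 arrays, as log2 signal relative to the 75th percentile of the array. Open points are the 2 spots of an array, short bars their mean, dashed lines the group mean and shaded bands 1 SD on each side (n = 3). The 3 LP arrays of day 21 and LP 7f of day 28 lie between -4.05 and -3.74, and the other 8 arrays between -2.98 and -2.35.

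Scgb1c1 was lower in LP than in NP glands at day 21. The log2 levels were -2.58, -2.37 and -2.98 in the NP glands and -3.95, -3.74 and -4.05 in the LP glands. Every LP gland was below every NP gland. The group means were -2.64 ± 0.31 in NP and -3.91 ± 0.16 in LP (SD, n = 3), a fitted log2 difference of -1.27 (SE 0.33), or 2.41-fold more signal in NP. Since the gene was chosen from this contrast, the difference has no test, and among all probes measured on that day 5.95% likewise had every LP array below every NP array and 1.15% had this together with at least a 2-fold lower LP mean. In whole glands, fewer cells of a type and less RNA per cell cannot be told apart.

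At day 28 the diets were not separated. The log2 levels were -2.95, -2.48 and -2.35 in the NP glands and -2.55, -2.83 and -3.95 in the LP glands. LP 4f and 6f lay within the range of the NP glands, and 7f lay below all of them, at the level of the LP glands of day 21. The means were -2.60 ± 0.31 in NP and -3.11 ± 0.74 in LP (SD, n = 3), and the fitted difference was -0.52 (SE 0.33, 95% interval -1.25 to 0.21), an LP over NP ratio of 0.698. By limma this gave an unadjusted p of 0.146 and a Benjamini-Hochberg adjusted p of 0.589 over 23209 tested probes, of which 0% passed an adjusted p of 0.05 and 8.07% an unadjusted p of 0.05 in this comparison. The interval takes in no difference as well as a deficit almost as large as that seen at day 21. Without LP 7f the difference was -0.10 (SE 0.23, adjusted p 0.934) and under normexp background -0.29 (SE 0.21, adjusted p 0.751). The local background around the Scgb1c1 spots of LP 7f was 58 and 43, against 12 to 26 around those of all other arrays, and its part in the result was not tested.

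Between day 21 and day 28 the level averaged over both diets was higher by 0.42 on the log2 scale (SE 0.23, 95% interval -0.09 to 0.94), or 1.34-fold. The unadjusted p was 0.0983 and the adjusted p 0.344 by limma, in a comparison where 1.81% of the tested probes passed an adjusted p of 0.05 and 19.2% an unadjusted p of 0.05. Without LP 7f the difference was 0.63 and the adjusted p 0.0956. In NP glands the levels of the days overlapped and the difference was 0.05 (SE 0.33). In LP glands it was 0.80 (SE 0.33), with 4f and 6f above all 3 LP glands of day 21 and 7f within their range, and without 7f it was 1.22 (SE 0.23). The differences within a diet use the day 21 arrays from which the gene was chosen and are therefore not tested, and neither was the change of the diet difference between the days. All arrays of day 21 were on slide 1 and all of day 28 on slide 2, and the effects of day and slide cannot be told apart.

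**Figure D2:**
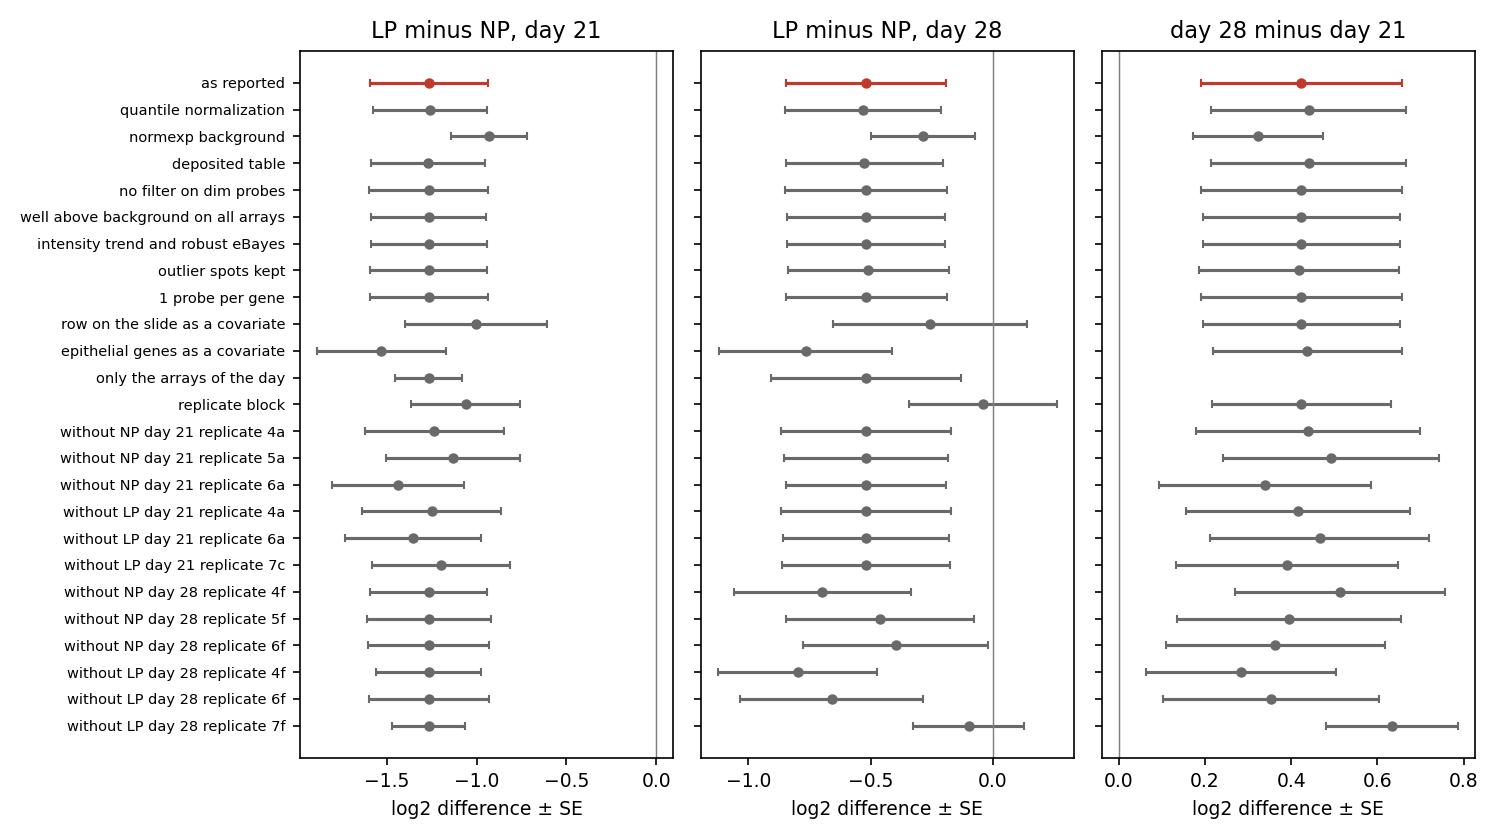
Log2 differences of Scgb1c1 with SE for LP minus NP at day 21, LP minus NP at day 28 and day 28 minus day 21 over both diets, as reported (top line) and under each alternative processing or with 1 array left out. The day 21 difference stays between -1.53 and -0.93, and the day 28 difference ranges from -0.80 to -0.04, with several alternatives besides leaving out LP 7f nearer to 0 than the reported -0.52. The -0.04 is from the replicate block, where LP 7f has no partner and takes no part.

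All 8 luminal and all 5 adipocyte markers tested were well above background on every array, as is usual of whole mammary gland. Marker lists and the position of the arrays were read beside these levels. The summed level of a list of T and B lymphocyte markers, of which 6 of 6 were tested, was 4.04 to 4.22 in NP and 3.98, -2.21 (6a) and 3.74 in LP at day 21. At day 28 it was 4.14 to 4.51 in NP and 4.04, 3.88 and 3.16 (7f) in LP, so that LP was below NP without overlap on both days. Among all single probes, 5.95% at day 21 and 12.4% at day 28 likewise had every LP array below every NP array. On LP 6a, 4 of the 6 were well above background, and on every other array all 6. The summed level of the 8 luminal markers, all tested, overlapped at day 21 (3.99 to 4.98 in NP and 4.39 to 5.90 in LP) and was higher in every LP gland at day 28 (3.85 to 4.91 in NP and 5.00 to 5.16 in LP). On that day 16.8% of all single probes did not overlap in either direction. Of the nasal or airway markers 3 of 7 were tested, Omp and Scgb3a2 were well above background on no array, and the summed level was -2.21 to -1.60 in NP and -2.09 to -1.94 in LP at day 21 and -2.71 to -1.72 in NP and -1.65 to -1.25 in LP at day 28. The ranges of the diets overlapped on both days for the lists of basal, adipocyte, macrophage, endothelial, skeletal muscle and liver markers. The 4 arrays in the second row of their slide were all LP, and 3 of them were among the 4 arrays with low Scgb1c1. LP 6f was in that row with a high level, and LP 4a of day 21 was in the first row with a low one. The part of lymphocyte content in the Scgb1c1 results was not tested. With slide row as a covariate the LP minus NP difference was -1.005 (SE 0.40) at day 21 and -0.26 (SE 0.40, adjusted p 0.952) at day 28.

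Krt8 and Krt18, a keratin pair of simple and luminal epithelia, and Epcam, an adhesion molecule of epithelial cells, were set against Scgb1c1. Krt8 was -0.67, 0.41 and -0.31 in NP and 0.77, 1.36 and -0.40 in LP glands at day 21, and -1.58, 0.20 and 0.13 in NP and 0.40, 0.53 and 0.45 in LP glands at day 28. Krt18 was 3.13, 3.89 and 2.94 in NP and 4.18, 4.78 and 3.43 in LP at day 21, and 2.62, 3.81 and 3.88 in NP and 4.18, 4.07 and 3.97 in LP at day 28. Epcam was 0.51, 1.70 and 0.65 in NP and 1.90, 2.74 and 1.003 in LP at day 21, and 0.43, 1.38 and 1.25 in NP and 1.71, 1.94 and 1.87 in LP at day 28. All 3 genes thus overlapped between the diets at day 21, with LP 6a the highest array of all for each. At day 28 every LP gland was above every NP gland for all 3, while Scgb1c1 overlapped. Of all probes measured at day 28, 16.8% had groups that did not overlap.

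The LP minus NP differences at day 28 were 0.88 (SE 0.54) for Krt8, 0.64 (SE 0.41) for Krt18 and 0.82 (SE 0.45) for Epcam, opposite in sign to that of Scgb1c1. Their adjusted p-values by limma were 0.586, 0.590 and 0.581. At day 21 the 3 differences were 0.77, 0.81 and 0.93, with adjusted p-values of 0.862, 0.861 and 0.861. Averaged over the diets, the day differences were -0.17, 0.03 and 0.02, with adjusted p-values from 0.837 to 0.984. With the mean of the 3 genes as a covariate, the LP minus NP difference of Scgb1c1 was -1.53 (SE 0.36) at day 21 and -0.77 (SE 0.35, adjusted p 0.953 by limma) at day 28. Both lie farther from 0 than without the covariate.

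The Scgb1c1 levels fell into 2 ranges, 4 arrays from -4.05 to -3.74 and 8 from -2.98 to -2.35, with a gap of 0.76 between them and at most 0.25 between any other neighbours. A correlation was therefore taken only over the 8 arrays of the upper range, a choice made after the values were seen, which leaves out all LP arrays of day 21 by the level of Scgb1c1 itself. Over all 12 arrays, as first planned, r was negative, at -0.23 for Krt8, -0.21 for Krt18 and -0.32 for Epcam (permutation p adjusted 0.508 for each). The sign on the levels thus differs between the 8 and the 12 arrays. The 12 arrays also hold the day 21 diet difference from which the gene was chosen, and deviations from group means were not taken over them. Over the 8 arrays, Scgb1c1 and Krt18 had a Pearson r of 0.64 (exact two-sided permutation p 0.0840, adjusted over the 3 relations 0.252) and a Spearman rho of 0.50 (exact permutation p 0.216, adjusted 0.428). Without NP 4f of day 28 and NP 6a of day 21, the arrays farthest from the median of Krt18, r was -0.08, so that the relation over these levels rested on those arrays. As deviations from the group means of the same 8 arrays, r with Krt18 was 0.90 (exact permutation p adjusted 0.00491), a test that takes the deviations as exchangeable although the group means were subtracted from them. For Krt8 r was 0.53 (exact permutation p 0.171, adjusted 0.257) and rho 0.38 (p 0.360, adjusted 0.428), and r was 0.40 without the 2 farthest arrays. For Epcam r was 0.45 (exact permutation p 0.262, adjusted 0.262) and rho 0.33 (p 0.428, adjusted 0.428), and r was 0.34 without the 2 farthest arrays. None of the 3 relations passed the test on the levels of the 8 arrays. As deviations from group means, r was 0.72 for Krt8 and 0.71 for Epcam (adjusted p 0.0517 for each by exact permutation). The LP group of day 28 gives only 4f and 6f here, whose deviations are equal and opposite, and the arrays were kept by the level of Scgb1c1. The p-values of the deviations therefore cannot decide a relation, or set Krt18 apart from the other 2 genes. The 8 arrays are 3 of day 21 and 5 of day 28, too few for a value within a day, and the 4 low arrays were too few for a correlation of their own.

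**Figure D3:**
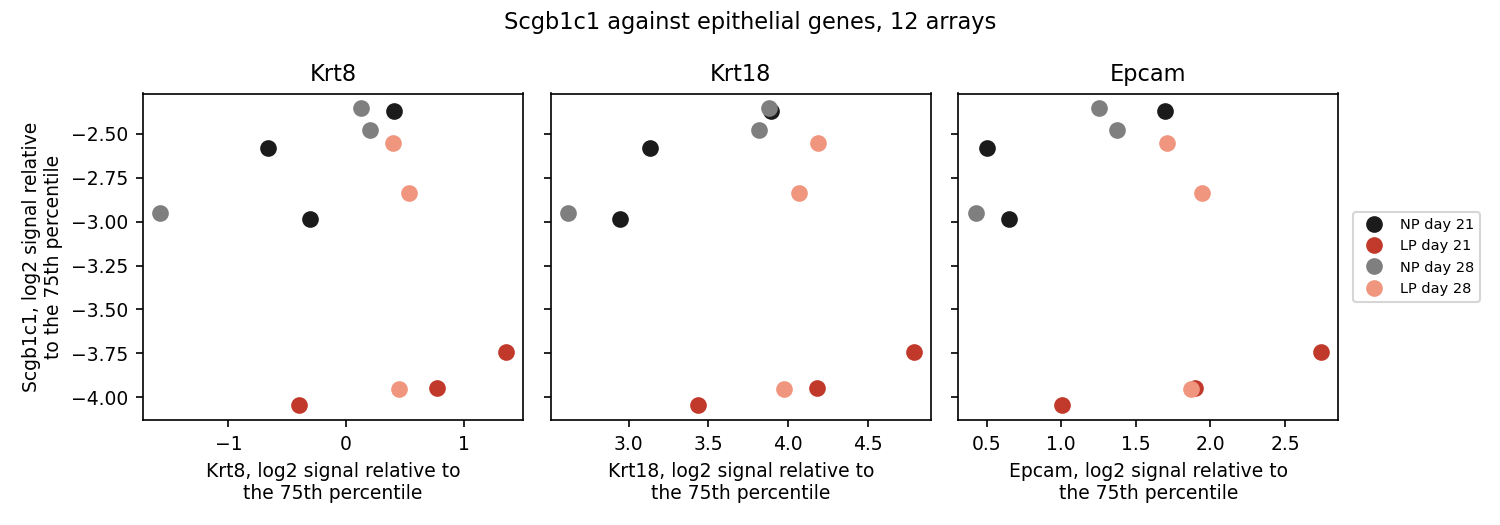
Scgb1c1 against Krt8, Krt18 and Epcam in the 12 arrays, each axis in log2 signal relative to the 75th percentile of the array and each point 1 rat. The 4 low arrays, at -3.74 or below, span Krt18 levels from 3.43 to 4.78, and the 8 upper arrays span 2.62 to 4.18.

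The array held 8 other genes of the secretoglobin family by name. Psbpc1 and Psbpc2, which RefSeq now names Scgb1d2 and Scgb1d4, Scgb3a2, and the gene the array calls Scgb2a2 were well above background on no array. The other 4 were tested: Abpa (now Scgb1b30), an androgen-binding protein subunit known from saliva, Scgb1a1, Scgb3a1, a secretoglobin of upper airway and other epithelia, and the gene the array calls Scgb2a1. The name Scgb2a1 belongs in RefSeq to the accession of the array's Scgb2a2, and the accession of the array's Scgb2a1 was not matched, so that the array's names are used. Of these 4 genes, 0 passed an adjusted p of 0.05 by limma for diet at day 28 or for day, and 0 and 1 passed an unadjusted p of 0.05, beside 8.07% and 19.2% of all tested probes. A share of 1 in 4 is near that of all probes.

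The log2 levels of Abpa were -4.42, -3.78 and -4.35 in NP and -4.12, -4.00 and -4.25 in LP at day 21, and -4.24, -3.09 and -3.96 in NP and -3.89, -3.46 and -3.97 in LP at day 28. Its diets overlapped on both days, with a day 28 diet difference of -0.01 (SE 0.29, adjusted p 0.994) and a day difference of 0.39 (adjusted p 0.323). Scgb1a1 also overlapped on both days, ranging from -5.84 to -4.93 over the 12 arrays, with a day 28 diet difference of -0.02 (SE 0.28). Scgb3a1 was the steadiest, from -4.53 to -4.13, with a day 28 diet difference of -0.04 (SE 0.11).

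The gene named Scgb2a1 on the array varied most, and its probe was well above background on 10 arrays. Its levels were -8.70, -5.27 and -5.76 in NP and -4.47, -4.41 and -6.70 in LP at day 21, and -5.71, -3.85 and -3.96 in NP and -4.26, -3.96 and -4.39 in LP at day 28. The day 28 diet difference was 0.30 (SE 0.92, adjusted p 0.907). Averaged over the diets it was 1.53 higher at day 28 (SE 0.65, unadjusted p 0.0407), which did not pass the adjustment (adjusted p 0.238). Over the 4 genes the median LP minus NP difference was 0.13 at day 21 and -0.01 at day 28, beside 0.01 and -0.05 over all tested probes. The day 21 differences were 0.06 (SE 0.29) for Abpa, 0.09 (SE 0.11) for Scgb3a1 and 0.16 (SE 0.28) for Scgb1a1. That of Scgb2a1 was 1.39 (SE 0.92), with NP 4a, at -8.70, its lowest array.

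**Figure D4:**
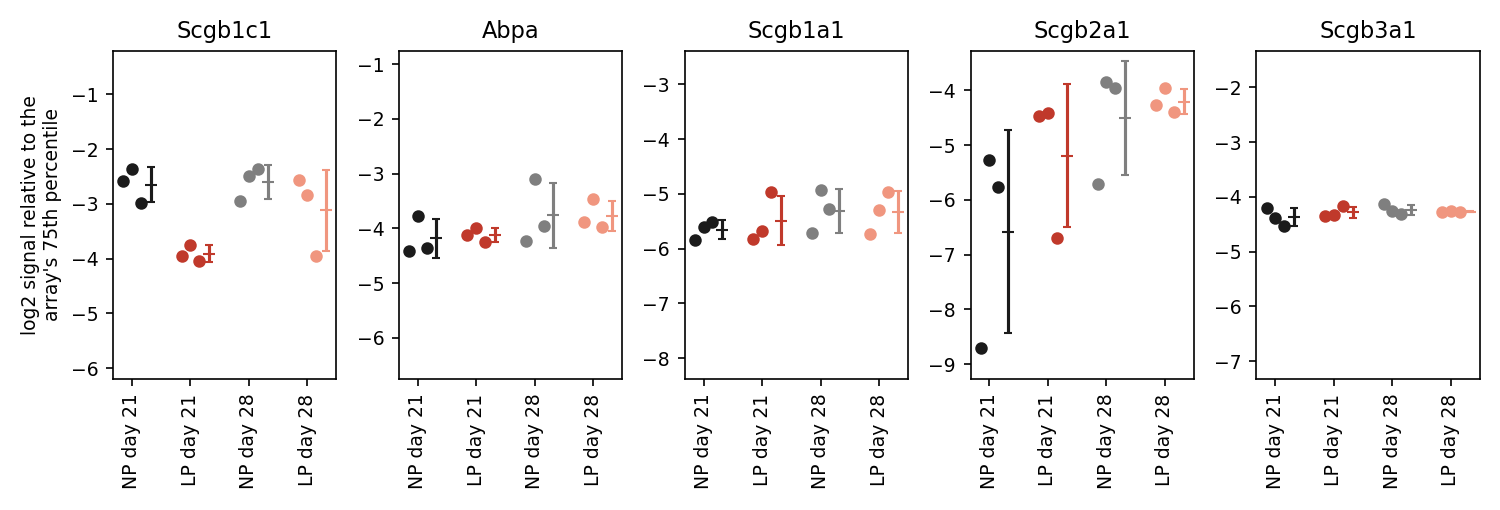
Log2 signal relative to the 75th percentile of the array for Scgb1c1 and the 4 other secretoglobin genes tested, in NP and LP glands at day 21 and day 28. Points are arrays, and bars are the mean with SD (n = 3); each vertical axis spans the same width but its own range, since levels of different probes are not comparable. Scgb1c1, which was chosen for this difference, is the panel in which the LP glands of day 21 stand below the NP glands. Their means were -3.91 in LP and -2.64 in NP. Among all probes, 5.95% had every LP array below every NP array on that day.

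A list of secretory genes and factors of nasal and airway epithelium was read in the same way. Of 30 genes, 22 were on the array, and 11 of these were well above background on no array, among them Omp, the olfactory marker protein, the odorant-binding proteins Obp1f and Obp2b, and the airway mucins Muc5ac and Muc5b. Of the 11 tested genes, 0 passed an adjusted p of 0.05 by limma for diet at day 28 or for day, and 1 and 2 passed an unadjusted p of 0.05, shares near the 8.07% and 19.2% of all tested probes. Gnal, an olfactory G protein subunit, was the one at day 28, with an LP minus NP difference of 0.75 (SE 0.27, adjusted p 0.581). Pigr, the receptor that carries immunoglobulins across epithelia, and Lyz2, a lysozyme also made by macrophages, had day differences of 1.04 and 0.66 (adjusted p 0.209 and 0.239). At day 21, 6 of the 11 differences were above 0 and 5 below, and 2 passed an unadjusted p of 0.05, as did 4.36% of all tested probes. These were Spdef and Foxa1, transcription factors also active in mammary luminal cells, with LP minus NP differences of 1.25 and 0.95 (both adjusted p 0.861), and the lowest was Ltf, the iron-binding lactoferrin, at -1.06 (unadjusted p 0.0501). The other 6 tested genes, Agr2, Aqp5, Azgp1, Ltf, Muc2 and Sftpd, had day 28 differences from -0.56 for Ltf to 1.21 for Azgp1, a secreted glycoprotein. The median LP minus NP difference of the 11 genes was 0.08 at day 21 and 0.33 at day 28.

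In the rn4 coordinates of the array, 11 genes had a probe within 100 kb of the Scgb1c1 probe on chromosome 1. Nlrp6, an inflammasome sensor, was well above background on no array and Syce1, of the synaptonemal complex, on 2, which left 9 tested. For these 9, 0 passed an adjusted p of 0.05 for diet on either day or for day by limma. At day 21, 2 passed an unadjusted p of 0.05 (as did 4.36% of all tested probes, with 0% past an adjusted p of 0.05), Ric8a lower in LP and RGD1309350 (now Urah, an enzyme of urate breakdown) higher, and at day 28, 0 did, beside 8.07% of all tested probes. Between the days 2 of the 9 passed it, a share near the 19.2% of all tested probes, the unnamed transcript ENSRNOT00000040274 with a difference of 0.60 (adjusted p 0.0820) and Psmd13, a proteasome subunit, with -0.21 (adjusted p 0.187). The median LP minus NP difference of the 9 was -0.04 at day 21 and 0.06 at day 28.

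Ric8a, which encodes a chaperone and exchange factor of G protein alpha subunits, lay 16.3 kb from the probe and was the neighbour whose levels followed Scgb1c1 most closely. Its log2 levels were 0.72, 0.66 and 0.78 in NP and 0.40, 0.51 and 0.32 in LP at day 21, and 0.73, 0.79 and 0.76 in NP and 0.67, 0.52 and 0.58 in LP at day 28. Every LP gland was below every NP gland on both days, as were 5.95% of all probes at day 21 and 12.4% at day 28. The LP minus NP difference was -0.31 (SE 0.09, unadjusted p 0.00494, adjusted p 0.861) at day 21 and -0.17 (SE 0.09, adjusted p 0.581) at day 28. On LP 7f, where Scgb1c1 was low, Ric8a stood at 0.58, between the other LP glands of that day. Over the 12 arrays r between Scgb1c1 and Ric8a was 0.80, rank 7 among 19965 probes well above background on every array. This is a description with no test, over points that share their arrays and their 75th percentile. The arrays also hold the day 21 diet difference from which Scgb1c1 was chosen. Ric8a was lower in LP on that day too, so that r and rank in part restate that contrast.

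Between Scgb1c1 and Ric8a lay Odf3 (now Cimap1a), of the sperm tail, at 3.92 kb, and Bet1l, a SNARE of Golgi transport, at 6.58 kb. Their LP minus NP differences at day 28 were -0.11 (SE 0.26) and 0.08 (SE 0.12). Sirt3, a mitochondrial deacetylase at 18.3 kb, differed by 0.15 (SE 0.11) and had an r of -0.60 with Scgb1c1. Neighbours on either side of Scgb1c1 thus had differences of either sign. Cyp2e1, an ethanol-oxidising cytochrome P450 on the other side, ranged over 10.03 on the log2 scale through 1 array, NP 4f of day 28 at 4.96, with the other 11 arrays between -5.08 and -2.18. Its day 28 difference was -3.18 with an SE of 1.86 (adjusted p 0.582). Cox8b, a cytochrome c oxidase subunit at 53.0 kb, ranged over 6.33 and had diet differences of 0.03 and 0.07, each with an SE of 1.53.

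**Figure D5:**
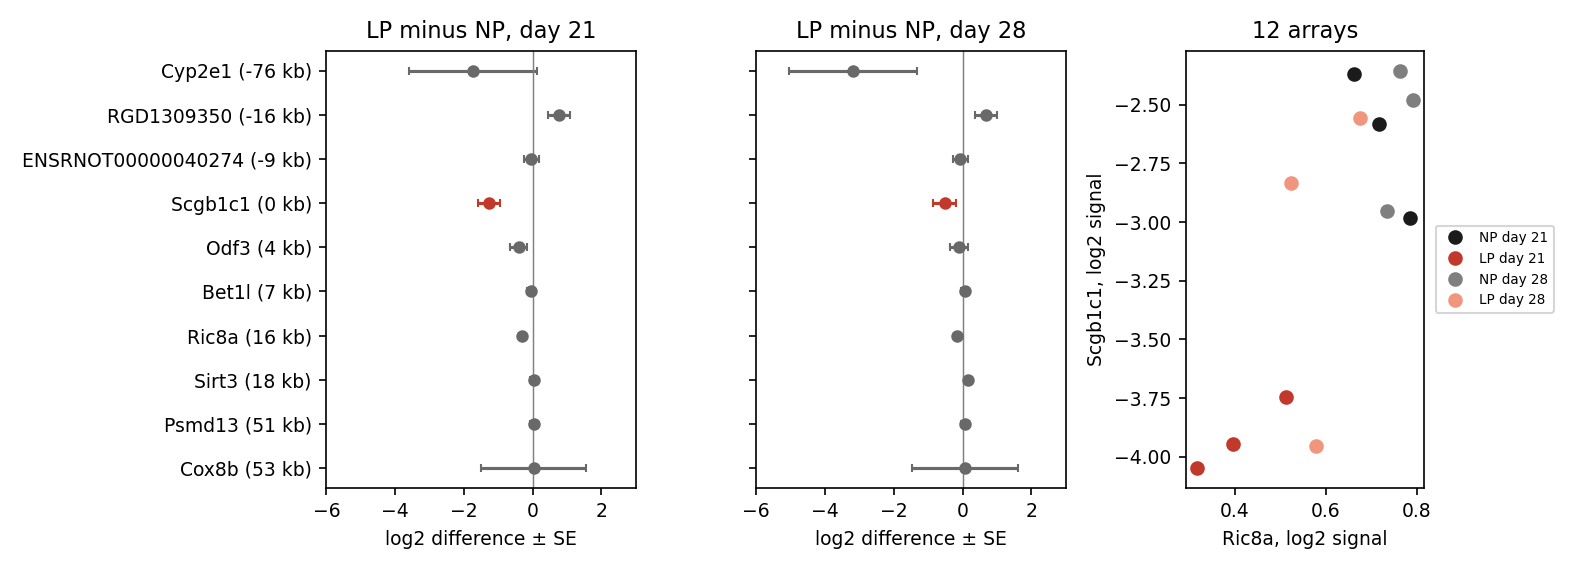
LP minus NP log2 differences with SE at day 21 and day 28 for Scgb1c1 (red) and the 9 tested genes within 100 kb, ordered by their distance from the Scgb1c1 probe, and on the right Scgb1c1 against Ric8a in the 12 arrays, in log2 signal relative to the 75th percentile. Ric8a differs by -0.31 at day 21 and -0.17 at day 28, against -1.27 and -0.52 for Scgb1c1.

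Among 17430 genes with a probe well above background on every array, the 5 whose levels were most like those of Scgb1c1 over the 12 arrays were Ppp1cc, a catalytic subunit of protein phosphatase 1 (r 0.84), Srf, the serum response factor (0.82), Slmo1, now Prelid3a (0.82), Zbtb2, a zinc finger protein (0.81), and Glod4 (0.80). The 5 most unlike were Guk1, guanylate kinase (-0.85), Vgll3, a cofactor of TEAD factors (-0.81), Mtx2, of mitochondrial import (-0.81), the transcript ENSRNOT00000005273 (-0.80), and Hes1, a target of Notch signalling (-0.79). These are ranks over 12 arrays in which the low arrays are all LP, given with no test, and the points share their arrays and scaling. The day 21 diet difference from which Scgb1c1 was chosen enters every r. The like genes moved much less than Scgb1c1, with a range over the arrays of 0.33 for Ppp1cc, 0.44 for Srf, 0.79 for Slmo1, 0.64 for Zbtb2 and 0.37 for Glod4, against 1.69 for Scgb1c1. Hes1 was -1.38, -1.50 and -1.42 in NP and -1.02, -0.80 and -1.07 in LP at day 21, and -1.30, -1.61 and -1.41 in NP and -1.82, -1.25 and -1.20 in LP at day 28. Its LP glands were thus all higher at day 21. At day 28 they lay on both sides of the NP glands, with a difference of 0.01 (SE 0.17). Hes1 was named for its negative r over arrays that hold the day 21 difference of Scgb1c1. Its order on that day was therefore close to given. The share of all probes with every LP array above every NP array at day 21 was not counted.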

How the data were processed

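Lumbar mammary gland RNA of 12 rats was measured on one-colour Agilent arrays, 3 in each of 4 groups. The authors deposited, for each array, the intensity of every spot from Feature Extraction 10.7.3.1, with background subtracted and trends within the array removed, small values replaced by a surrogate and no scaling between arrays. They also deposited a table of intensity divided by 1 number per array, used as an alternative. Each array held 58717 gene spots, of which 74.8 to 79.6% were well above background, and the number of arrays limits the precision.

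Control spots (4259) and spots marked as outliers (259 to 766 per array) were left out. Values are log2 of the processed signal minus log2 of the array's 75th percentile, which removes overall brightness and assumes that this percentile is equal between glands. The spots of each probe were averaged, and a probe was taken as well above background if the software said so of 0.5 or more of its spots. The fit took the 23209 probes that reached this on 3 or more of the 12 arrays, with 4 group means in lmFit and eBayes of limma (version 3.58.1, under R version 4.3.3), and p-values were adjusted by Benjamini-Hochberg over all of them. The steps were tested on simulated data. Correlations were tested with all 40320 orders of 8 arrays, instead of the 12 arrays first planned.

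The genes named are Scgb1c1, the secretoglobin family, nasal and airway genes, Krt8, Krt18 and Epcam, genes within 100 kb, and the 5 genes most like and 5 most unlike Scgb1c1. A gene in a list is given by its brightest probe, and list members well above background on fewer than 3 arrays are given by count or name only. The members and lists were chosen with earlier results of these data known. The list of T and B lymphocyte markers is Cd3e, Cd3g, Cd3d, Cd79a, Cd79b and Ms4a1 (1 further marker is not reported here), and a list's summed level is the log2 of the sum of its tested genes' signals, each relative to the 75th percentile. Alternatives were quantile normalization, normexp background with an offset of 50, the deposited table, other filters on dim probes, eBayes with an intensity trend, outlier spots kept, 1 probe per gene, slide row or epithelial genes as a covariate, only the arrays of the day, the replicate number as a block, and leaving out each array.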

Additional observations from a re-analysis of the deposited data

How the results depend on the processing

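The day 21 LP minus NP difference of Scgb1c1 (-1.27) kept its sign under all 24 alternatives. It was -0.93 under normexp background, -1.005 with slide row as a covariate and -1.53 with epithelial genes as a covariate. With 1 array left out it was -1.44 to -1.13. Filters on dim probes, the intensity trend and 1 probe per gene cannot change it, nor can leaving out arrays of day 28. Since the groups did not overlap, leaving out 1 array of day 21 cannot turn its sign. The kept sign is therefore no support for the difference. The day 28 difference kept its sign and stayed above an adjusted p of 0.05 under all 24, from -0.80 to -0.04, with adjusted p from 0.522 to 0.983. The day difference did so under all 23 run, from 0.28 to 0.63, with adjusted p from 0.0956 to 0.562. No secretoglobin gene passed an adjusted p of 0.05 under any of them.

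Over all 12 arrays, as first planned, the correlations of Scgb1c1 turned negative, at -0.23 for Krt8, -0.21 for Krt18 and -0.32 for Epcam (permutation p adjusted 0.508 for each), with the 4 low LP arrays and the day 21 diet difference then included. Over the 8 arrays as deviations from group means, r with Krt18 was 0.90 (exact permutation p, adjusted 0.00491), a test with the limits given above. On the levels themselves, r with Krt18 was 0.64 over the 8 arrays. Without LP 6f of day 28 this rose to 0.84 over 7 arrays (exact permutation p, adjusted 0.0488), the highest value with 1 array left out. These arrays too were kept by the level of Scgb1c1, so that this p cannot decide a relation. With 1 array left out, r was 0.24 to 0.73 for Krt8, 0.48 to 0.84 for Krt18 and 0.25 to 0.74 for Epcam.

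Replicate numbers are shared by groups, but the labels do not say that they mark a litter, and not every pair correlated above 0.1. Across days 10 of 12 arrays correlated best with their own number (r -0.06 to 0.38), and across diets 6 of 8 (r 0.09 to 0.13). With a replicate block, the Scgb1c1 differences were -1.06 at day 21, -0.04 at day 28 and 0.42 (SE 0.21) between days, and the probes passing an adjusted p of 0.05 between days went from 421 to 21, with 0 for diet in both fits. The diet differences of this block rest on the arrays numbered 4 and 6 alone, since the others have no partner of the other diet.

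With 3 arrays per group the exact permutation p of 1 value cannot fall below 0.1. The day 28 difference was near 0 without LP 7f. It was also near 0 with the replicate block (SE 0.30), where LP 7f has no partner and so no part in that difference. The block is thus no separate result. In it LP 4f (-2.55) was above NP 4f (-2.95), and LP 6f (-2.83) was below NP 6f (-2.35). Only 1 probe stands for the gene.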
